A study of Mus musculus with 6 samples.

Results

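The MYC, MAX and MXD network was examined at the RNA level in mouse embryonic fibroblasts (MEFs, connective-tissue cells cultured from embryos) labelled Fbxw7 knockout (KO) and wild type (WT). Its members were the 10 genes Myc, Mycn, Mycl, Max, Mxd1, Mxd3, Mxd4, Mxi1, Mnt and Mlx, found by gene name among 52006 named loci of the deposited tables. Each had 1 locus, and Mxd1 shared its locus with the predicted transcript Gm44292. All 10 passed the filter on low counts. There were 3 KO and 3 WT libraries of total RNA, all from cells in the same serum-supplemented DMEM. The labels gave no strain, allele, Cre line, passage or embryo age. Since they also named no culture or embryo for a library, the p-values cover the variation among these 6 libraries alone, part or all of which may be technical.

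MYC proteins (MYC, N-MYC and L-MYC) are transcription factors that work only as pairs with MAX. MYC-MAX pairs bind the DNA sequence CACGTG, called the E-box, and raise transcription of genes for ribosome assembly, nucleotide and amino acid metabolism and cell growth. The MXD proteins, MXI1 (also called MXD2) and MNT compete for MAX and for the same sites and recruit the SIN3 corepressor. MLX is a MAX-like partner of some MXD proteins, of MNT and of the glucose-sensing factor MLXIP. FBXW7 is an F-box protein that brings phosphorylated MYC and N-MYC to an SCF ubiquitin ligase, which marks them for degradation. The libraries measured RNA and gave no protein level.

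RefSeq windows on build GRCm38.p6, from 250 bases before to 50 bases after a gene's start, covered 9 of the 10 members in 11 windows. Myc had no window and was not searched. CACGTG, which reads the same on both strands, stood in 4 windows of 4 members, Max, Mlx, Mnt and Mxd4. Over all 32851 mouse windows 7.15% held it, and 8.09% of 27025 genes had it in at least 1 window. These 4 windows are shown because they hold the letters that the network's proteins bind, with the E-box in capitals.

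Max promoter, chr12:76962199-76962498, minus strand, E-box beginning 3 bases before the start: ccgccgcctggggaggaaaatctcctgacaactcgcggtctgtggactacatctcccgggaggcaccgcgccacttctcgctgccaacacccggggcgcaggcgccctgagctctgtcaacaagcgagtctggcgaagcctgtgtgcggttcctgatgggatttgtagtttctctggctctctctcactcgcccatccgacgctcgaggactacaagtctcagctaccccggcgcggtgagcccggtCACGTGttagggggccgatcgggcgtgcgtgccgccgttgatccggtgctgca

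Mlx promoter, chr11:101087040-101087339, plus strand, E-box beginning 40 bases before the start: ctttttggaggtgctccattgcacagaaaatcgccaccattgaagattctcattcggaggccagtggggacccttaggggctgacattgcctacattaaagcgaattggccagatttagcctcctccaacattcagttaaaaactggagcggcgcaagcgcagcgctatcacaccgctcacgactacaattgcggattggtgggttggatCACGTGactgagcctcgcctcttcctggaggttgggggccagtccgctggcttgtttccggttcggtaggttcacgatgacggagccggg

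Mnt promoter, chr11:74830674-74830973, plus strand, E-box beginning 123 bases before the start: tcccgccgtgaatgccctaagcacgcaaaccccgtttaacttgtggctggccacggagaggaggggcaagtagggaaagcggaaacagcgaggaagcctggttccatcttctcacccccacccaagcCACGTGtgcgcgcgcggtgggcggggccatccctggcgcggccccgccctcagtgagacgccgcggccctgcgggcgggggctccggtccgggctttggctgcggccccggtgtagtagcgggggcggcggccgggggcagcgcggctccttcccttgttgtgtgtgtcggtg

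Mxd4 promoter, chr5:34187661-34187960, minus strand, E-box beginning 219 bases before the start: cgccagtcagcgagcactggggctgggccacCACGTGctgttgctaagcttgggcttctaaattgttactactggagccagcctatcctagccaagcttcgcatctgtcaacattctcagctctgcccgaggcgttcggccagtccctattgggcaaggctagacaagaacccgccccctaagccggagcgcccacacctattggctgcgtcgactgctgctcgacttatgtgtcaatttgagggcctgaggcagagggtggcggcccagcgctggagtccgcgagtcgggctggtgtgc

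Mxi1 is shown as well, because it was the member whose RNA differed beyond the test's threshold. None of its 3 windows held the E-box. The letters ACGTG, the core of the hypoxia response element, were searched on both strands and lie inside every E-box. They stood in 2 of the 3 windows of this 1 gene, which overlap each other. Of all windows 19.6% held them, and 13.6% outside any E-box; by gene, 21.8% had them in at least 1 window, and 15.3% outside any E-box. They are capitalised in the window below; a match in these letters is a description and shows no binding.

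Mxi1 promoter, chr19:53329163-53329462, plus strand, ACGTG beginning 66 bases before the start: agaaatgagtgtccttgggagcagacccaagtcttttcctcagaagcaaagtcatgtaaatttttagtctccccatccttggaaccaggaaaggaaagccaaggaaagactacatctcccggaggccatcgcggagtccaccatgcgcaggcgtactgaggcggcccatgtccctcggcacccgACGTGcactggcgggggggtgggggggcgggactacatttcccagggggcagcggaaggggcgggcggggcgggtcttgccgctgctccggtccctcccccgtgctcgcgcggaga

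The deposited estimated fragments summed to 55720129 to 60402238 in KO libraries and to 62551369 to 64198455 in WT libraries. These totals carry a scaling factor for each library, so they do not rank the libraries by depth. With the factor taken out, KO replicates 1, 2 and 3 held 57728018, 60332638 and 70625581 fragments. WT replicates 1, 2 and 3 held 66070380, 51152310 and 57960348. The squared difference between libraries of a genotype, as a median over genes, was set against that of sampling noise alone. Between replicates 1 and 2 it was 6.57 (KO) and 7.56 (WT) times as large. Between the third library and these it was 32.8 to 44.2 times as large in KO and 27.3 to 29.9 times in WT. The third libraries thus stood apart, and Myc, Mycl and Mxi1 are given with and without each of them. Fbxw7 itself read 27.6, 27.4 and 24.1 CPM (TMM-scaled counts per unit of library total) in KO libraries. In WT libraries it read 29.5, 28.4 and 30.1 CPM (log2 fold change -0.16 ± 0.10 SE, adjusted p = 0.332 in edgeR). The gene spans 84815268 to 84979198 on chromosome 3, but its deposited locus spans 84496093 to 85887518. That locus reaches beyond the gene on both sides, and Gm37240 and Gm37726 are annotated as overlapping, so its reads may be shared. The deleted exons were not given either, so this sum over the whole locus does not check the labels. The 9 fibroblast markers summed to 23457 to 25389 CPM in KO and 23447.5 to 31678.5 CPM in WT; of them Lum (165, 160 and 374 CPM in KO, 20.4, 17.2 and 3.68 CPM in WT) and Dcn were higher and Vim lower in KO past the threshold. Of the 24 markers of 5 other cell types 6 were at 0 in all libraries (Adgre1, Tyrobp, Tie1, Krt8, Myod1 and Sox2). The 5 endothelial markers summed to 0.614 to 1.42 CPM in KO and 6.46 to 9.24 CPM in WT. In WT this was mostly Kdr (4.30, 4.26 and 8.19 CPM) and Tek (2.57, 2.02 and 1.01 CPM). Pecam1 was at most 0.166 CPM and Cdh5 at most 0.0341 CPM in any library, and Tie1 was at 0. The leukocyte, epithelial, skeletal muscle and neural lists summed to at most 3.02 CPM in any library. Kdr, Tek and the leukocyte marker Cd68 were lower in KO past the threshold. Xist, which is transcribed in cells with an inactive X chromosome, was at 798 to 1046 CPM in KO and 0.213 to 2.17 CPM in WT at a locus shared with predicted transcripts. The Y-linked gene Ddx3y was at 24.0 to 35.9 CPM in KO and 81.8 to 109 CPM in WT. Both were chosen after their values were seen. Every KO library was apart from every WT library in each, so a difference in the sex of the cells cannot be told apart from genotype. Its part in the results below was not tested.

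The members spanned a wide range of abundance. On the FPKM scale, which is per transcript length and allows levels of different genes to be compared, Myc, Mxd4 and Max led in KO cells at 40.3 ± 4.19, 38.3 ± 5.75 and 36.8 ± 3.3 FPKM (SD, n = 3), and the libraries of these 3 genes overlapped. Below them in KO cells came Mlx (15.3 ± 1.06), Mnt (10.1 ± 1.5), Mxi1 (9.05 ± 1.31), Mycl (4.42 ± 0.0908), Mxd3 (3.25 ± 0.412), Mxd1 (2.62 ± 0.423) and Mycn (0.224 ± 0.0829). Of these neighbours, Mnt and Mxi1 overlapped, as did Mxd3 and Mxd1. In WT cells Mxd4 stood first at 47.9 ± 4.43 FPKM, clear of Max at 38.9 ± 0.612 FPKM, which was clear of Myc at 21.0 ± 10.8 FPKM (SD, n = 3). The rest of the WT order was the same as in KO, with overlap between Myc and Mlx, Mxi1 and Mycl, Mycl and Mxd3, and Mxd3 and Mxd1. Mycn, known from neural and embryonic progenitors, was the least abundant member in both genotypes.

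**Figure D1:**
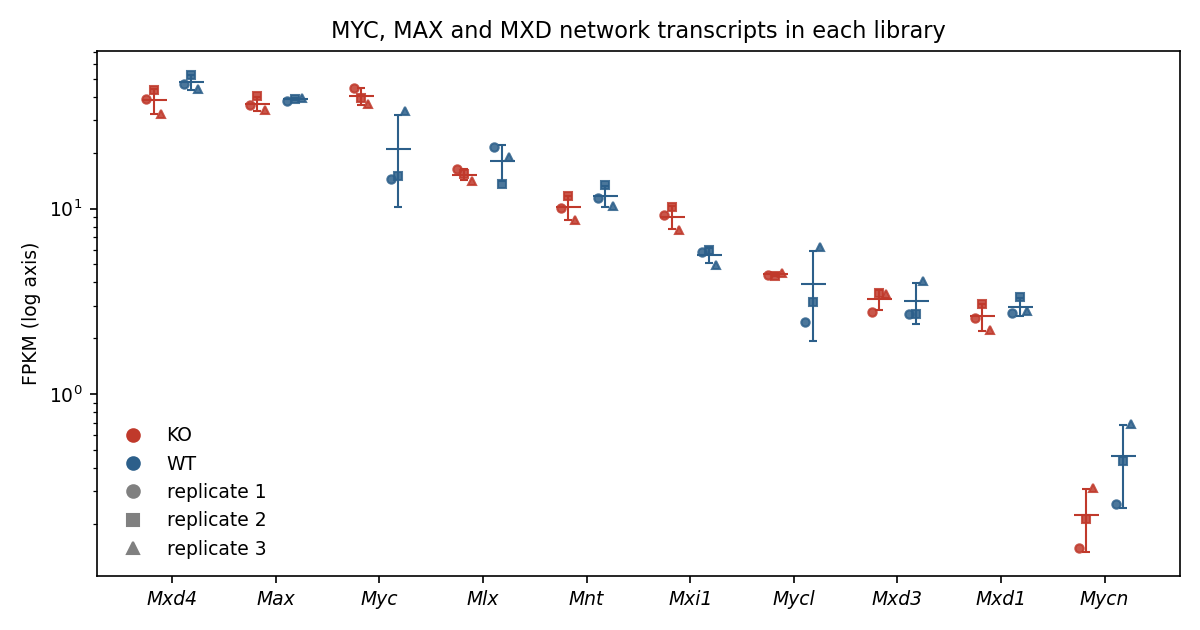
FPKM (log axis) of the 10 network members in each library, KO in red to the left and WT in blue to the right of each gene, with symbols for the replicates and bars for mean ± SD (n = 3). Myc read 36.6 to 44.9 FPKM in the KO libraries, above the 14.4 to 33.5 FPKM of the WT libraries, in which replicate 3 stands apart.

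Between the genotypes, Mxi1 RNA rose in KO cells to 1.66 times the WT mean, Myc RNA averaged 2.06 times the WT mean without passing the test, and the 8 other members stayed short of the threshold. Thus 1 of 10 members passed an adjusted p of 0.05, in edgeR's quasi-likelihood test with Benjamini-Hochberg adjustment over 16787 genes; over all genes tested, 16.1% passed, 8.03% higher and 8.08% lower in KO. KO and WT libraries did not overlap in CPM for 3 members (Myc and Mxi1 above, Mlx below), against 37.7% of all genes (19.2% above, 18.4% below). An unadjusted p below 0.05 was met by the same 3 members, against 31.6% of all genes. The median log2 fold change was -0.07 over the 10 members and 0.01 over all genes. The share of members that passed, 10%, was below the share of all genes. Fewer cells of a type and less RNA per cell cannot be told apart in these bulk libraries.

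Myc (chromosome 15, 61985391 to 61990374, plus strand, mm10), the broadly expressed MYC gene, read 97.0, 85.7 and 77.7 CPM in KO libraries 1, 2 and 3, against 28.3, 29.6 and 68.3 CPM in WT libraries 1, 2 and 3. The groups did not overlap, but WT replicate 3 lay close to the lowest KO library and at 2.36 times the mean of WT replicates 1 and 2. The log2 fold change was 1.04 ± 0.33 (SE; 95% interval 0.29 to 1.80), with an unadjusted p of 0.0129 and an adjusted p of 0.0669 in edgeR. Without WT replicate 3 (18.5% of all genes passed, and 3 members) it was 1.58 ± 0.12 (adjusted p = 0.000597 in edgeR). Without KO replicate 3 (3282 genes passed, and 1 member) it was 1.11 ± 0.42 (adjusted p = 0.133 in edgeR). With replicates 1 and 2 only (41.3% of all genes, and 4 members) it was 1.66 ± 0.09 (adjusted p = 2.29e-10 in edgeR). Leaving out the highest WT library lowers the WT mean, so the settings without WT replicate 3 are no separate evidence. The Wald test of DESeq2 on all 6 libraries gave 1.03 ± 0.30 (adjusted p = 0.00663), where 17.6% of all genes passed. Whether Myc passed thus depended on WT replicate 3 and on the tool. The direction was the same in all 19 alternatives, with log2 fold changes between 0.79 and 1.66.

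Its paralogs read differently. Mycl (chromosome 4, 122995652 to 123002485, plus strand), which encodes L-MYC, had 12.9, 13.6 and 14.7 CPM in KO libraries, against 7.95, 8.96 and 17.0 CPM in WT libraries. The KO values lay between those of WT replicates 1 and 2 and that of WT replicate 3, so the groups overlapped. The log2 fold change was 0.28 ± 0.27 (95% interval -0.36 to 0.92, adjusted p = 0.533 in edgeR). It was 0.70 ± 0.13 without WT replicate 3 (adjusted p = 0.0126 in edgeR, where 18.5% of all genes passed). That library was the highest WT library for Mycl, so this value is no separate evidence either. Without KO replicate 3 the log2 fold change of Mycl was 0.22 ± 0.34 (adjusted p = 0.699 in edgeR). Mycn (chromosome 12, 12936093 to 12941914, minus strand), which encodes N-MYC, had 0.412, 0.572 and 0.819 CPM in KO libraries and 0.672, 0.962 and 1.81 CPM in WT libraries, from 23.6 to 48.1 deposited fragments in KO and 39.8 to 111 in WT. Its groups overlapped, and its log2 fold change of -0.93 ± 0.43 had a 95% interval of -1.93 to 0.06 (adjusted p = 0.181). WT replicate 3 was the highest WT library for each of the 3 MYC genes, at 2.36, 2.01 and 2.22 times the mean of WT replicates 1 and 2 for Myc, Mycl and Mycn, whereas 8.38% of all tested genes were at least 1.5-fold above that mean in WT replicate 3. In KO replicate 3, Mycn alone of the 10 members reached that distance from the mean of KO replicates 1 and 2, at 1.67 times, against 9.98% of all tested genes.

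Max (chromosome 12, 76937269 to 76962201, minus strand), the obligate partner, had 67.1, 73.3 and 65.1 CPM in KO libraries and 69.4, 67.8 and 69.3 CPM in WT libraries. The WT values fell inside the KO range, and the log2 fold change of -0.0067 ± 0.085 had a 95% interval of -0.20 to 0.19 (adjusted p = 0.967 in edgeR). Its sign turned with the scaling, at 0.089 when libraries were scaled by size only.

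Among the repressors, Mxi1 (chromosome 19, 53310518 to 53375810, plus strand) had 51.0, 55.3 and 42.0 CPM in KO libraries and 31.3, 31.7 and 26.2 CPM in WT libraries. Every KO library lay above every WT library, and within each genotype replicate 3 was the lowest. The log2 fold change was 0.73 ± 0.13 (SE; 95% interval 0.43 to 1.04; adjusted p = 0.0105 in edgeR). Mxi1 passed with all libraries and also without WT replicate 3 (0.65 ± 0.13, adjusted p = 0.0189 in edgeR). It passed without KO replicate 3 (0.83 ± 0.11, adjusted p = 0.00323 in edgeR). With replicates 1 and 2 only, where 41.3% of all genes passed, it was 0.75 ± 0.09 (adjusted p = 2.29e-06 in edgeR). The spread between replicates 1 and 2 was small and may be technical. It lost the call when replicates 1 and 2 of each genotype were summed to 1 sample (0.72 ± 0.19, adjusted p = 0.116). The gene overlaps Gm10197 and AC133451.2 on the opposite strand, so without a stated use of strand its reads may be shared with them. The tables hold 1 value for the gene and do not separate the transcripts from its several start sites.

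**Figure D2:**
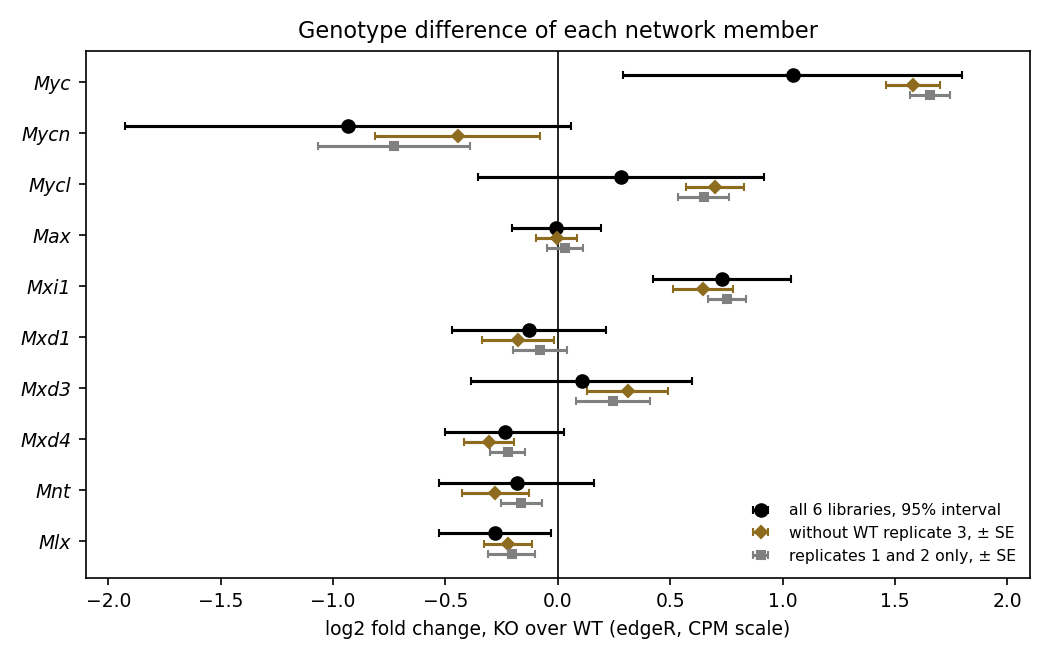
Log2 fold change of each network member, KO over WT, on the x axis from edgeR: black circles are all 6 libraries with 95% intervals, brown diamonds leave out WT replicate 3 and grey squares keep replicates 1 and 2 only, both ± SE. Mxi1 lies at 0.65 to 0.75 under all 3 settings, whereas Myc lies at 1.04 with all libraries and at 1.58 without WT replicate 3.

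The other repressors gave lower averages in KO, apart from Mxd3, and none passed. Mxd4 (chromosome 5, 34173883 to 34187720, minus strand), the most abundant repressor gene and one linked to cell cycle exit, had 152, 160.4 and 130.5 CPM in KO libraries and 176, 189 and 157 CPM in WT libraries, so only KO replicate 2 reached into the WT range; in FPKM all KO libraries lay below all WT libraries. Its log2 fold change was -0.24 ± 0.11 (95% interval -0.50 to 0.03, adjusted p = 0.202 in edgeR). With replicates 1 and 2 only, where 41.3% of all genes passed, Mxd4 passed as well (-0.22 ± 0.08, adjusted p = 0.0319 in edgeR). A gene annotated antisense to it, Gm42846, could share its reads.

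Mnt (chromosome 11, 74830920 to 74845725, plus strand), a repressor expressed in both growing and resting cells, had 49.7, 55.9 and 40.7 CPM in KO and 54.6, 63.5 and 48.0 CPM in WT libraries, with overlap and a log2 fold change of -0.18 ± 0.15 (adjusted p = 0.449). Mxd1 (chromosome 6, 86647042 to 86669161, minus strand), which is induced when cells differentiate, had 12.6, 14.5 and 10.9 CPM in KO and 13.0, 15.6 and 12.9 CPM in WT libraries (-0.13 ± 0.15; adjusted p = 0.605 in edgeR). In both genes the highest library of each genotype was replicate 2 and the lowest was replicate 3. Mxd3 (chromosome 13, 55325168 to 55329823, minus strand), known for its expression in S phase, had 3.43, 4.22 and 4.37 CPM in KO and 3.26, 3.19 and 4.72 CPM in WT libraries (0.11 ± 0.21; adjusted p = 0.775). The 95% intervals were -0.53 to 0.16 for Mnt, -0.47 to 0.22 for Mxd1 and -0.38 to 0.60 for Mxd3. The deposited locus of Mxd3 reaches beyond the gene, into Prelid1 on the opposite strand, so its reads may be shared.

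Mlx (chromosome 11, 101087277 to 101092207, plus strand) had 19.7, 20.6 and 19.6 CPM in KO libraries and 24.5, 21.9 and 26.2 CPM in WT libraries. All KO libraries lay below all WT libraries, by a small margin, and the log2 fold change of -0.28 ± 0.11 (95% interval -0.53 to -0.03) had an unadjusted p of 0.0332 and an adjusted p of 0.122 in edgeR. On the FPKM scale the groups overlapped, because WT replicate 2 read 13.6 FPKM there, below the 14.2 to 16.3 FPKM of the KO libraries. Mlx overlaps Psmc3ip on the opposite strand, and its deposited locus reaches beyond the gene, so its reads may be shared as well.

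The balance inside the network was read from the FPKM values, as a description with no test. The 10 members summed to 165, 172 and 144 FPKM in KO libraries and 147, 149.6 and 165 FPKM in WT libraries, which overlapped. The 3 MYC genes together made up 29.9%, 25.6% and 28.8% of that sum in KO and 11.7%, 12.4% and 24.4% in WT libraries, so all KO libraries lay above all WT libraries and WT replicate 3 came nearest. For each FPKM of the 5 repressor genes there were 0.777, 0.611 and 0.763 FPKM of MYC genes in KO and 0.247, 0.238 and 0.608 in WT libraries. Against Max the MYC genes stood at 1.37, 1.09 and 1.22 in KO and 0.448, 0.475 and 1.02 in WT libraries. Thus MYC-gene RNA exceeded Max RNA in every KO library and in WT replicate 3, and was less than it in WT replicates 1 and 2.

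**Figure D3:**
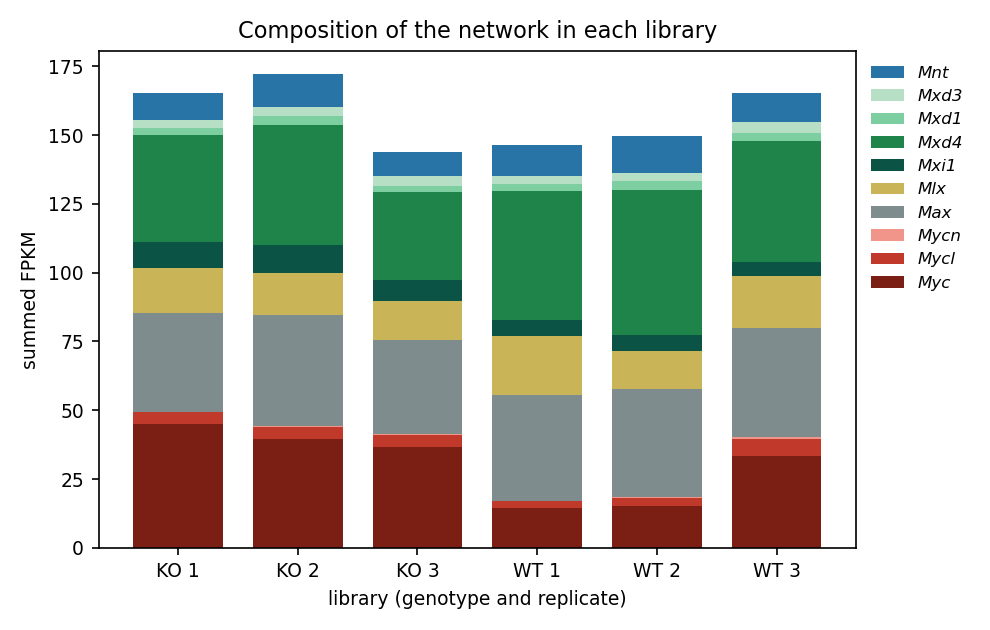
Summed FPKM of the 10 network members in each library (KO replicates left, WT replicates right), stacked by gene with the MYC genes at the bottom. The MYC genes take 41.4 to 49.4 FPKM in the KO libraries and 17.2, 18.6 and 40.4 FPKM in WT replicates 1, 2 and 3.

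Composition within each class moved less with the replicate. Myc made up 90.8%, 89.7% and 88.3% of the FPKM of the MYC genes in KO and 84.2%, 80.9% and 82.9% in WT libraries. Mxi1 made up 14.6%, 14.2% and 14.1% of the FPKM of the 5 repressor genes in KO and 8.37%, 7.61% and 7.53% in WT libraries. In both shares the genotypes were separate and the third libraries lay with their own genotype; Mxd4 remained the largest repressor term in every library.

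Of 24 tested genes for associated factors and cofactors, 1 passed, higher in KO (median log2 fold change 0.05), and Mlxipl, a glucose-sensing partner of MLX, fell below the count filter. The gene that rose was Sin3a, the corepressor recruited by MXD and MNT proteins, with 81.5, 79.3 and 76.0 CPM in KO libraries and 60.9, 63.6 and 62.9 CPM in WT libraries. Its log2 fold change was 0.34 ± 0.08 (adjusted p = 0.0280 in edgeR), with no overlap. It did not pass without WT replicate 1 or 2 or without KO replicate 1 or 2. In these settings 0 genes of this list passed in edgeR, with 1 to 2 at an unadjusted p below 0.05. Over all genes 1302, 1271, 1169 and 1462 passed there, in that order, against 2705 with all libraries. Sin3a also did not pass with the replicate number as a block, where 14% of all genes passed.

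Of 21 tested genes that control MYC protein stability, 1 passed, also higher in KO (median log2 fold change -0.08). It was Usp28, a deubiquitinase known to bind FBXW7 and to stabilise MYC, which had 30.2, 29.0 and 32.6 CPM in KO libraries and 20.6, 21.8 and 19.6 CPM in WT libraries. The groups were well apart, and the log2 fold change was 0.57 ± 0.10 (adjusted p = 0.00952 in edgeR). Skp2, the F-box gene of another SCF ligase for MYC, chosen after its values were seen, averaged 28.9 CPM in KO and 20.3 CPM in WT (adjusted p = 0.0721). The shares of these lists that passed, 4.17% and 4.76%, were below the 16.1% of all genes.

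Genes known to be induced by MYC, mostly for ribosome assembly and metabolism, gave a mixed picture. Of 60 tested, 4 were higher and 2 lower in KO, 10% in all against 16.1% of all genes, with a median log2 fold change of 0.22 against 0.01. Odc1, the rate-limiting enzyme of polyamine synthesis, rose (35.7, 35.6 and 47.0 CPM in KO, against 17.6, 18.2 and 23.2 CPM in WT; log2 fold change 1.00 ± 0.16, adjusted p = 0.00616 in edgeR). Shmt2, of mitochondrial one-carbon metabolism, had 206, 208 and 182 CPM in KO and 101, 105 and 154 CPM in WT (adjusted p = 0.0249). Slc29a2, a nucleoside transporter gene, averaged 2.84 ± 0.274 CPM in KO and 1.54 ± 0.149 CPM in WT (SD, n = 3 each; adjusted p = 0.0192). Ldha, chosen after its values were seen, was the other gene that rose.

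Those that fell had other roles. Tert, the catalytic subunit of telomerase, had 3.33, 2.76 and 3.52 CPM in KO and 8.03, 8.98 and 5.33 CPM in WT libraries (log2 fold change -1.22 ± 0.22, adjusted p = 0.0111 in edgeR). Cdk4, a kinase of G1 progression chosen after its values were seen, averaged 371 ± 4.22 CPM in KO and 486 ± 52.1 CPM in WT (SD, n = 3 each; adjusted p = 0.0446). Several members, such as Ldha, Odc1 and Npm1, have processed pseudogenes that can share reads, which makes their levels uncertain.

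The count in this list depended on WT replicate 3. That library lay above both other WT libraries for 57 of the 60 genes, at a median of 1.40 times their mean, against 38.1% of all tested genes and a median of 0.985 times. Without that library 24 of the 60 rose and 1 fell (median log2 fold change 0.38, with 18.5% of all genes passing). With replicates 1 and 2 only, 39 rose and 4 fell (0.43, with 41.3% of all genes passing). Leaving out WT replicate 3 lowers the WT mean of those 57 genes, so these counts are no separate evidence. Without any 1 of WT replicates 1 and 2 and KO replicates 1 and 2, Odc1 and Tert were the only genes of the list that passed. Calls over all genes fell as well in these settings, to 1302 of 17220, 1271 of 17204, 1169 of 17225 and 1462 of 17202, in that order. With all libraries they were 2705 of 16787. Among cell cycle genes, WT replicate 3 was the highest WT library for all 14, at a median of 1.88 times the mean of the other two. None of these 14 passed with all libraries (0 in edgeR and in DESeq2, 2 at an unadjusted p below 0.05 in each). Without WT replicate 3, 6 rose, where 18.5% of all genes passed. Leaving out the highest WT library lowers the WT mean of each of these genes, so the 6 are no separate evidence. Without any 1 of the other libraries 0 passed (edgeR, 0 or 1 at an unadjusted p below 0.05), where 1169 to 3282 of all genes passed. The 2 most abundant were Top2a (at a locus shared with Gm23451), with 117, 119 and 169 CPM in KO and 91.8, 82.7 and 159.5 CPM in WT libraries, and Mcm6, with 115, 115 and 103 CPM in KO and 85.5, 79.1 and 134 CPM in WT libraries. In WT, the library with the highest Myc, Mycl and Mycn RNA was also the highest for most growth genes and for all cell cycle genes. In KO, replicate 3 had the lowest Myc RNA and was the highest KO library for 8 of the 14 cell cycle genes, at a median of 1.25 times the mean of KO replicates 1 and 2, and for 14 of the 60 growth genes, at 0.913 times. Their part in the genotype comparison was not tested.

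**Figure D4:**
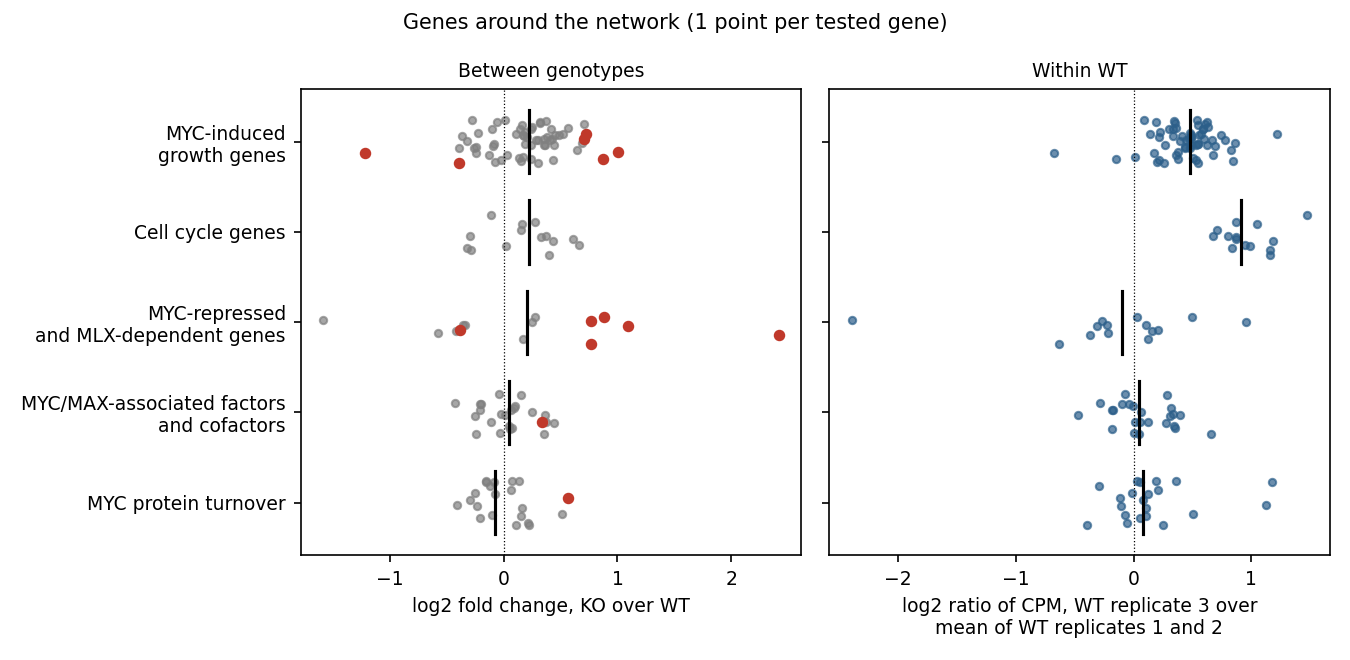
Genes around the network, 1 point per tested gene and a black bar for the list's median: left, log2 fold change of KO over WT with genes past the threshold in red; right, log2 ratio of CPM in WT replicate 3 over the mean of WT replicates 1 and 2. The growth and cell cycle lists lie to the right of 0 in the right panel, at medians of 1.40 and 1.88 times on the linear scale.

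Genes that MYC represses or that depend on MLX pairs moved in both directions: 5 of 14 rose and 1 fell, 42.9% against 16.1% of all genes, with a median log2 fold change of 0.21. The split varied with the setting. It was more even with replicates 1 and 2 only (7 higher and 5 lower, with 41.3% of all genes passing). The same held without WT replicate 3 (6 and 3, 18.5% of all genes) and by DESeq2 (5 and 3, 17.6%). It was more one-sided with library size only (6 and 0, with 2994 genes passing in all). The same held without WT replicate 2 (4 and 0, 1271 genes) and without KO replicate 1 (3 and 0, 1169 genes). These shares were not compared by a test. Ndrg1, a growth-arrest gene that also responds to low oxygen, rose most (159, 139 and 173 CPM in KO, against 30.0, 33.6 and 24.6 CPM in WT libraries; log2 fold change 2.42 ± 0.14, adjusted p = 0.000111 in edgeR). The stress gene Gadd45a had 84.4, 81.2 and 78.4 CPM in KO and 41.5, 40.2 and 33.0 CPM in WT libraries (adjusted p = 0.000984). Txnip, the best-known target of MLXIP-MLX and an inhibitor of glucose uptake, had 340, 312 and 283 CPM in KO and 191, 198 and 161 CPM in WT libraries (log2 fold change 0.76 ± 0.12, adjusted p = 0.00541). Arrdc4, its relative and another MLXIP-MLX target, chosen after its values were seen, averaged 36.7 CPM in KO and 32.6 CPM in WT (adjusted p = 0.272).

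The remaining calls in that list were Ndrg2, at 9.84 ± 0.564 CPM in KO and 5.34 ± 1.12 CPM in WT (SD, n = 3 each; adjusted p = 0.0142 in edgeR), and 2 genes chosen after their values were seen. Cdkn1b, the inhibitor p27, rose (103 ± 3.52 CPM in KO, 60.5 ± 14.2 CPM in WT; adjusted p = 0.0211), and Gadd45b fell (37.8 ± 0.404 CPM in KO, 49.4 ± 4.44 CPM in WT; adjusted p = 0.0331). Without WT replicate 1, KO replicate 1 or KO replicate 2, the genes that passed were Ndrg1, Gadd45a and Txnip. Over all genes 1302, 1169 and 1462 passed in these settings, against 2705 with all libraries.

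The genes whose profile over the 6 libraries was most like that of Myc were found by the root mean square distance between log2 CPM profiles, each centred on its own mean, among 8272 genes outside the lists with a mean of at least 10 CPM over the 6 libraries. They were Thsd7a (distance 0.131), Melk (0.154), Ereg (0.187), Rassf6 (0.204) and Uhrf1 (0.211), where the median gene lay at 0.745. Thsd7a had 34.5, 31.9 and 25.5 CPM in KO and 11.9, 12.5 and 24.2 CPM in WT libraries. All 5 were higher in WT replicate 3 than in WT replicates 1 and 2, which their choice by likeness to Myc in these same libraries fixes.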

How the data were processed

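Total RNA of 3 Fbxw7 KO and 3 WT MEF libraries was sequenced; per the submitters' processing notes TopHat2 2.1.1, SAMtools 1.5, deepTools and Cufflinks 2.2.1 were used on mm10, with no annotation or use of strand named. The authors deposited estimated counts (expected fragments per locus) and FPKM (fragments per transcript length and library total) per the file headers; 30 further value columns (variances and interval bounds) were not used. Between 88.9% and 89.5% of the estimated counts up to 1000 were whole multiples of 1 step per library (tolerance 0.05), so each library carried 1 scaling factor. Loci without a name (1317) or marked HIDATA (9 named) were left out.

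Estimated counts were rounded and tested over the whole table (edgeR 4.0.16, R 4.3.3: TMM scaling after filterByExpr, two-sided robust quasi-likelihood F test, genotype as the only term, Benjamini-Hochberg over 16787 genes, threshold 0.05); CPM use the same factors. SE is |log2 fold change| over the root of F, and 95% intervals use it with the total degrees of freedom. Intervals and spreads do not remove PCR duplicates, which were not marked by molecular identifiers. Positions are from GENCODE M21, promoters from RefSeq. The tool was tested on simulated data. Alternatives were other scalings, filters, DESeq2 1.42.0, limma 3.58.1 on log2(FPKM + 1) or log2(FPKM + 0.1), a replicate block, unscaled fragments, and libraries left out or summed. Members and lists were chosen with earlier results of these data known. The text names all members, Fbxw7, up to 4 genes per list with the smallest adjusted p among those past the threshold (the 2 most abundant where none passed), and the 5 genes most like Myc.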

Additional observations from a re-analysis of the deposited data

How the results depend on the processing

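Over 19 alternatives, Mlx, Mnt, Mxd1 and Mxd3 kept their direction and stayed short of the threshold in all 19, Mycn in the 16 that tested it, and Mxi1 passed in 17, with log2 fold changes of 0.60 to 0.83. It missed the threshold with replicates 1 and 2 summed (adjusted p = 0.116) and by limma on log2(FPKM + 1) without a filter (adjusted p = 0.0591); its adjusted p ranged from 2.29e-06 to 0.116. Myc passed in 3 (DESeq2, replicates 1 and 2 only, and without WT replicate 3; adjusted p from 2.29e-10 to 0.404), Mycl in 2 (0.000232 to 0.895) and Mxd4 in 1 (0.0319 to 0.517). Max changed sign in 5, at 0.033 with upper-quartile factors, 0.089 with library size only, 0.033 with replicates 1 and 2 only, 0.0039 without KO replicate 1 and 0.024 without KO replicate 3; leaving out 1 library gave -0.062 to 0.024. Library size only moved the median of all genes to 0.10 on the log2 scale, against 0.01, and gave 1968 higher and 1026 lower genes in place of 1348 and 1357.

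Network members that passed numbered 2 by DESeq2, 4 with replicates 1 and 2 only, 0 with replicates 1 and 2 summed (edgeR, 1 at an unadjusted p below 0.05) and 0 by unfiltered limma (2 unadjusted). Genes past the threshold numbered 2705, and 6993 with replicates 1 and 2 only, 484 with them summed, 1388 by limma on log2(FPKM + 1), 1314 on log2(FPKM + 0.1) and 1512 unfiltered. With replicates 1 and 2 only, 41.3% of all genes passed. In that setting 12 of 24 cofactors, 10 of 21 turnover genes and 43 of 60 growth genes passed. So did 12 of 14 repressed or MLX-dependent genes and 11 of 14 cell cycle genes. With replicates 1 and 2 summed these were 0, 0, 0, 2 and 0 in edgeR (0, 1 and 6 unadjusted for the first 3 lists). By limma 0, 0 and 2 cofactors passed (pseudocount 1, pseudocount 0.1, unfiltered; 6 and 5 unadjusted for the first pair), and 2, 2 and 1 growth genes; 2 turnover genes passed unfiltered and 3 repressed or MLX-dependent genes with pseudocount 0.1. Cofactors numbered 2 with library size only and 0 without a count filter (edgeR, 5 unadjusted); turnover genes numbered 2 with library size only, without a count filter and by DESeq2.

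With the replicate block 0 cofactors (edgeR, 4 unadjusted) and 2 turnover genes passed, and 2356 of all genes; no network member changed its call. The replicate numbers were not shown to pair the samples: deviations from the genotype means correlated at 0.024, 0.098 and 0.079 over genes for replicates 1, 2 and 3, and KO replicate 1 correlated more with WT replicate 2 (0.076). Leaving out 1 library at a time gave 1169 to 3282 genes, 1 to 3 network members, 0 to 3 cofactors, 1 to 2 turnover genes, 2 to 25 growth genes, 3 to 9 repressed or MLX-dependent genes and 0 to 6 cell cycle genes. The cause of these shifts was not tested. Mycn had 23.6 to 111 deposited fragments per library; counting error and spread between libraries were not separated for it.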
